A study of Mus musculus with 6 samples.

Results

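Genes for PD-1 and for other receptors that set the strength of lymphocyte activation were followed in innate lymphoid cell precursors (ILCPs) that did or did not express the ET-2 transgene: Pdcd1, Cd28, Ctla4, Lag3, Cd27, Cd2, Btla and Tigit. They were taken by symbol, and all 8 were found among the 16383 genes analysed. ILCPs, found in bone marrow, are the source from which innate lymphoid cells develop. The GFP+ group, ILCPs expressing ET-2, and the GFP− group, ILCPs not expressing it, came from the marrow of the same C57BL/6 mice, which carried Rag1-cre and ET-2, so the GFP− cells carry both transgenes as well. Each of the 3 replicates was a pool of 4 to 5 mice whose marrow was split by GFP, which gave 3 libraries of GFP+ and 3 of GFP− cells (replicates 1 to 3 from pools 1 to 3); ages are not stated. Both fractions were sorted as CD90+, α4β7+ and IL7Rα+ cells that lacked CD25, Flt3 and lineage markers. No group had Rag1-cre without ET-2, so ET-2 and a history of Rag1-driven Cre cannot be told apart.

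These receptors read ligands on neighbouring cells and add to, or hold back, signals from antigen and cytokine receptors. CD28, CD2 and CD27 are costimulatory, whereas PD-1, CTLA-4, BTLA, TIGIT and LAG-3 are inhibitory and recruit phosphatases, compete for ligand or dampen signalling by other routes. In mouse bone marrow PD-1 is also known as a surface marker of ILC precursors. ET-2, as background, joins activation domains of the E protein E47 to the DNA-binding region of TAL1, and such factors bind E-box sequences of the form CANNTG.

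Since E-boxes are the DNA element that E proteins read, the 250 bases before the RefSeq start (GRCm38.p6, written 5′ to 3′ in the direction of the gene) are shown for Pdcd1 and Cd27, the members with the highest mean level per length. Capitals mark each match to CANNTG, a pattern that reads the same on both strands. The Pdcd1 sequence is chr1:94052554-94052803, minus strand, and the Cd27 sequence is chr6:125237028-125237277, minus strand.
Pdcd1: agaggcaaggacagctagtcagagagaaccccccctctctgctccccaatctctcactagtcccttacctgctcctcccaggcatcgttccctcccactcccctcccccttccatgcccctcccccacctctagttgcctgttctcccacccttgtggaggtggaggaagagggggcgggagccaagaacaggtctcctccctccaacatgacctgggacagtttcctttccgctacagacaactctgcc
Cd27: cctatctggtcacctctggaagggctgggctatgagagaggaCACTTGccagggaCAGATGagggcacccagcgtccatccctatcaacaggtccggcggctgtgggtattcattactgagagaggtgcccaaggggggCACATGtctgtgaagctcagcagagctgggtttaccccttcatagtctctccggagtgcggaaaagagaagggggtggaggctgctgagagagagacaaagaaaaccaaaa
CANNTG had 0 matches in the Pdcd1 window and 3 in the Cd27 window. The 3 began 208, 195 and 111 bases before the start of Cd27. Of 32851 promoters of that length, 66.2% held at least 1 match. The table matched 5 of the 8 members. The windows of Ctla4, Btla and Tigit held 1 match each, which began 19, 236 and 138 bases before their starts. The match at Ctla4 was CAGGTG and the match at Btla was CAGCTG. Counted on both strands, CAGGTG was found in 17.2% of all these promoters and CAGCTG in 13%; each is also a match to CANNTG. A match is a description of the sequence, and no binding was measured.

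The libraries held 10432461 to 15042354 estimated counts in GFP+ and 11680512 to 19038554 in GFP− ILCPs. GFP+ replicate 3 stood apart, with 11240 genes above 0 counts against 12576 to 15016 in the other libraries. Among genes with a mean of at least 5 CPM (counts scaled to library size) in the other 5 libraries, 8.87% had at most 1 count in GFP+ replicate 3, 4.32% in GFP+ replicate 2 and at most 1.42% in each of the remaining libraries. Transcripts of the sorted surface proteins were present in every library. Il7r stood at 1259, 2459 and 2471 CPM in the GFP+ cells of pools 1, 2 and 3 and at 1357, 1707 and 2679 CPM in their GFP− cells. Itga4, the α4 chain, ranged from 1795 to 6837 CPM in GFP+ and from 2294 to 6460.1 CPM in GFP− ILCPs, and Rora, a regulator of ILC fate, from 685 to 2485 CPM in GFP+ and from 1893 to 2726 CPM in GFP− ILCPs. Thy1, which encodes CD90, ranged from 206 to 509 CPM in GFP+ and from 184 to 413 CPM in GFP− ILCPs. Flt3 was at most 2.57 CPM in GFP+ cells and 2.49 CPM in GFP− cells, while Il2ra, which encodes the CD25 sorted against, reached 2032 CPM in GFP+ replicate 3, with no other library above 396 CPM. In bulk libraries, fewer cells with a transcript and less of it per cell cannot be told apart.

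The comparison asked which of the 8 receptor genes differed between GFP+ and GFP− ILCPs, and none passed the test. Cd28 had the largest ratio of means, with 107 ± 92.8 CPM in GFP+ against 38.4 ± 16.4 CPM in GFP− ILCPs (SD, n = 3 each), yet its GFP+ values ran from 0.119 to 162 CPM. Pdcd1 stood within its GFP− range in one GFP+ library and at 0 in another. Tigit was the member lower in GFP+ in 3 of 3 pairs, as 14.9% of all tested genes were. edgeR's quasi-likelihood test tested 7 of the 8, since Ctla4 fell under its filter on low counts, and 0 of the 7 had a Benjamini-Hochberg adjusted p under 0.05, nor an unadjusted p under 0.05. Over all 12199 genes tested edgeR called 0 (0%), with 3.23% at an unadjusted p under 0.05. DESeq2 also called 0 members, where it called 0.411% of the genes to which it gave an adjusted p, and 0 members with the replicate number as a block, where it called 1.22%. The authors' deposited table lists adjusted p of 0.908 to 0.985 for the 8 genes. Of the 13948 genes to which it gives an adjusted p, 0.703% have one under 0.05. For every member the range of the GFP+ libraries overlapped that of the GFP− libraries, whereas groups did not overlap for 9.18% of tested genes. The replicates are separate pools of mice, so the p-values measure the spread between pools, sorts and libraries together.

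**Figure D1:**
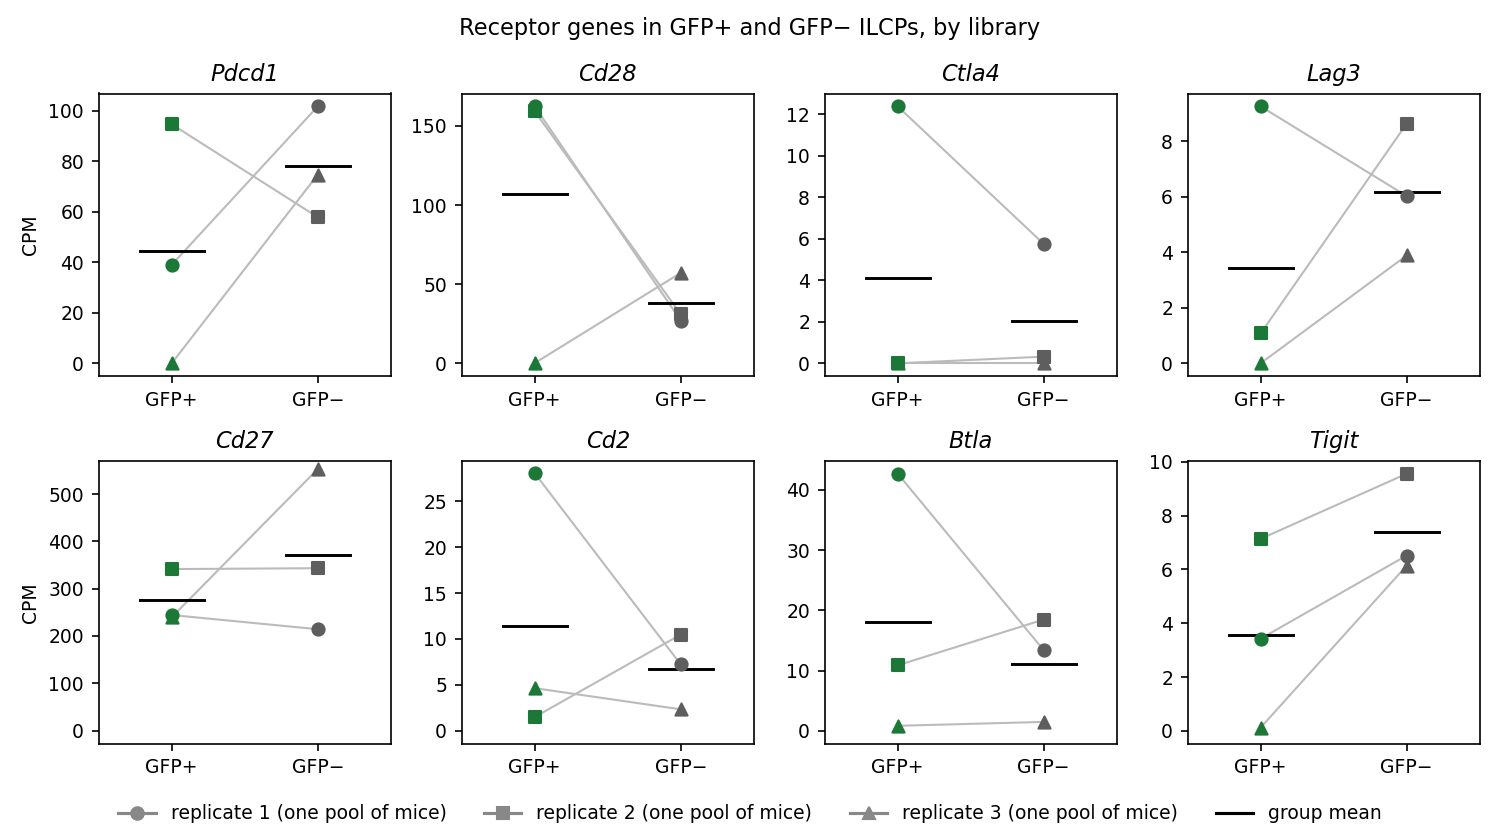
CPM of the 8 receptor genes in each library, with GFP+ left of GFP− in each panel, lines joining the fractions of one pool of mice and bars at the group means. GFP+ replicate 3 (triangles) lies at 0 for Pdcd1, Ctla4 and Lag3 and at 0.119 CPM for Cd28 and Tigit, but at 240 CPM for Cd27.

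Pdcd1 encodes PD-1, the inhibitory receptor for PD-L1 and PD-L2. The gene lies on chromosome 1 at 94038305 to 94052553, minus strand (GRCm38, GENCODE vM21). It had 39.0, 94.6 and 0 CPM in the GFP+ cells of pools 1, 2 and 3, against 102, 57.8 and 74.7 CPM in the GFP− cells of these pools. All 3 GFP− libraries and GFP+ replicates 1 and 2 thus held Pdcd1 RNA at 39.0 CPM or more, and GFP+ replicate 3 had 0 counts. In that pool Pdcd1 was at least 209-fold lower in GFP+ than in GFP− cells, taking 3 counts as the floor of the library at 0, which covers counting error only. In pool 1 the GFP+ level was 0.383 of the GFP− level, and in pool 2 it was 1.64 times the GFP− level, so the direction was not shared by the pools. The log2 fold change was −0.81 (95% interval −3.81 to 2.19; edgeR adjusted p = 0.998). It was −0.22 (edgeR adjusted p = 1.00) without GFP+ replicate 3, −2.01 without GFP+ replicate 2 and −2.06 with the replicate block.

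Cd28 encodes the costimulatory receptor for CD80 and CD86 and lies on chromosome 1 at 60716800 to 60773359, plus strand. It had 162, 159 and 0.119 CPM in the GFP+ cells of pools 1, 2 and 3, against 27.0, 31.0 and 57.2 CPM in the GFP− cells of these pools. GFP+ replicates 1 and 2 were close to each other and above every GFP− library, at 6.02 and 5.14 times the GFP− level of their own pools. GFP+ replicate 3 held 1 count against 735 in the GFP− library of its pool, a ratio of 0.00208 (exact 95% counting interval 5.26e-05 to 0.0116). With all libraries the log2 fold change was 1.48 (95% interval −1.51 to 4.48; edgeR adjusted p = 0.998), and 0.90 with the replicate block. Without GFP+ replicate 3 it was 2.07 ± 0.53 (SE), with an unadjusted edgeR p of 0.00410 and an adjusted p of 1.00. Of all genes in that fit, 3.89% had an unadjusted p under 0.05. In the same 5 libraries, every GFP+ value lay above every GFP− value for 7.62% of genes. Pools 1 and 2 therefore showed higher Cd28 RNA in GFP+ cells and pool 3 the opposite, and no test over all genes passed with or without that library.

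Ctla4 encodes CTLA-4, which binds the same ligands as CD28 and takes them away from it. It lies 114 kb from Cd28, on chromosome 1 at 60887000 to 60915832, plus strand, and a ribosomal protein pseudogene, Rpl18-ps1, lies within its span without touching its exons. It had 195, 0 and 0 counts in the GFP+ cells of pools 1, 2 and 3, against 82, 7 and 0 counts in the GFP− cells of these pools. Its RNA was thus found mainly in pool 1, in both fractions, with 12.4 CPM in its GFP+ fraction and 5.75 CPM in its GFP− fraction. In the 2 libraries of pool 3 it had 0 counts, where 3 counts would be 0.357 CPM in GFP+ and 0.233 CPM in GFP− cells. Fitted without the filter, the log2 fold change was 1.05 (edgeR adjusted p = 0.997), and with the replicate block in DESeq2 it was −0.54 (adjusted p = 0.996). DESeq2 without the block gave Ctla4 no p-value.

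Cd27 encodes a receptor of the TNF receptor family that binds CD70 and signals through TRAF2 and TRAF5. The gene spans 125232622 to 125237010 of chromosome 6, minus strand. Its exons overlap a microRNA gene, Mir8113, so reads of Cd27 and Mir8113 may not be fully separate. Its span also overlaps that of Vamp1, without their exons touching. It had 244, 341 and 240 CPM in the GFP+ cells of pools 1, 2 and 3, against 214, 343 and 553 CPM in the GFP− cells of these pools. These were the steadiest values of the 8, and GFP− replicate 3 was the single high library. The log2 fold change of −0.43 had the narrowest interval of the 7 tested members, −1.57 to 0.71 (edgeR adjusted p = 0.998). It was 0.070 without replicate 3 of both groups and −0.021 without GFP− replicate 3. With 2013 counts in GFP+ replicate 3, Cd27 was well counted in the library in which 5 other members had at most 1 count.

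Cd2 encodes an adhesion and costimulatory receptor that binds CD48 in mice, and lies on chromosome 3 at 101275899 to 101287939, minus strand. It had 28.0, 1.49 and 4.64 CPM in the GFP+ cells of pools 1, 2 and 3, against 7.22, 10.5 and 2.33 CPM in the GFP− cells of these pools. GFP+ replicate 1 alone gave 51.7% of the CPM summed over the 6 libraries, and the other GFP+ values lay within or below the GFP− range. The log2 fold change was 0.77 (95% interval −2.18 to 3.72; edgeR adjusted p = 0.998) and turned to −1.07 without GFP+ replicate 1 (edgeR adjusted p = 0.834).

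Btla encodes an inhibitory receptor of the immunoglobulin family that binds the TNF receptor family member HVEM. It lies on chromosome 16 at 45224315 to 45257670, plus strand. It had 42.7, 10.9 and 0.833 CPM in the GFP+ cells of pools 1, 2 and 3, against 13.4, 18.5 and 1.48 CPM in the GFP− cells of these pools. Both fractions of pool 3 were the lowest of their groups, and GFP+ replicate 1 was the highest library with 48.7% of the summed CPM. The log2 fold change of 0.71 (95% interval −2.30 to 3.71; edgeR adjusted p = 0.998) turned to −0.89 without GFP+ replicate 1 (edgeR adjusted p = 0.874) and was 0.011 with the replicate block.

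Lag3 encodes an inhibitory receptor that binds MHC class II and, in mice and humans, FGL1. The gene spans 124904361 to 124911705 of chromosome 6, minus strand. It had 9.26, 1.08 and 0 CPM in the GFP+ cells of pools 1, 2 and 3, against 6.03, 8.64 and 3.89 CPM in the GFP− cells of these pools. GFP+ replicate 1 was above all GFP− libraries and the other GFP+ libraries were below all of them; in pool 3 the GFP+ level was at least 10.9-fold lower against the floor of 3 counts. The log2 fold change was −0.84 (95% interval −4.67 to 2.99; edgeR adjusted p = 0.998). It was −3.44 without GFP+ replicate 1 (edgeR adjusted p = 0.586) and −2.83 with the replicate block, but −0.27 without GFP+ replicate 3, −0.42 without GFP+ replicate 2 and −0.10 when both fractions of pool 2 were left out.

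Tigit encodes an inhibitory receptor for PVR (CD155) and nectin-2, and lies on chromosome 16 at 43648867 to 43664146, minus strand. It had 3.43, 7.14 and 0.119 CPM in the GFP+ cells of pools 1, 2 and 3, against 6.52, 9.56 and 6.15 CPM in the GFP− cells of these pools. Every GFP+ library was below the GFP− library of its pool, at 0.526, 0.747 and 0.0194 of its level, but GFP+ replicate 2 was above GFP− replicates 1 and 3. The last ratio rests on 1 count against 79 and has an exact 95% counting interval of 0.000484 to 0.111. The log2 fold change was −1.05 (95% interval −4.33 to 2.22; edgeR adjusted p = 0.998), −0.49 without GFP+ replicate 3, −2.05 without GFP+ replicate 2 and −1.90 with the replicate block.

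**Figure D2:**
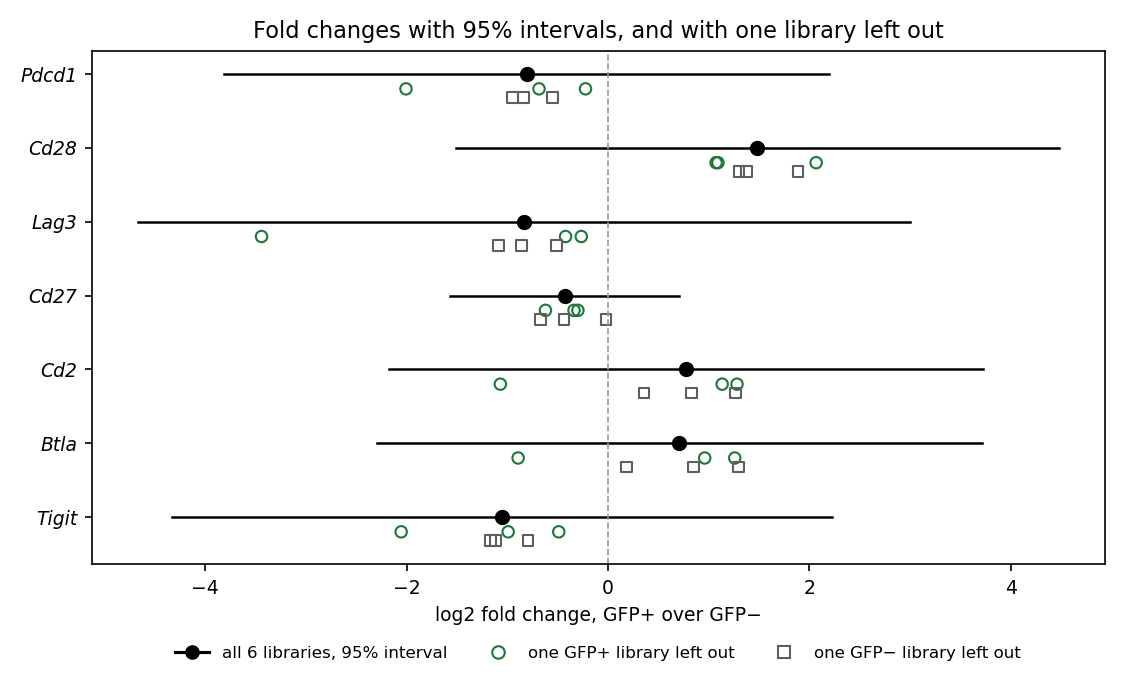
Log2 fold change of GFP+ over GFP− for the 7 tested members (filled points, with 95% intervals from the edgeR fit) and the same with one GFP+ (circles) or one GFP− library (squares) left out. All 7 intervals include 0, and Cd2 and Btla change sign when GFP+ replicate 1 is left out.

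GFP+ replicate 3 was the lowest library, or tied lowest, for 5 of the 7 tested members, against 40.8% of all tested genes. Of the 7 members with a mean of at least 5 CPM elsewhere, Pdcd1, Cd28, Lag3 and Tigit had at most 1 count in it, beside 8.87% of all such genes. Lag3 and Tigit averaged 5.78 and 6.56 CPM in the other 5 libraries, near that limit. The share among genes of such low levels was not counted. Pdcd1 and Cd28, which averaged 73.6 and 87.4 CPM in the other 5 libraries, were among 25 of 3882 genes (0.644%) that averaged at least 50 CPM elsewhere and had at most 1 count there; the limit of 50 was chosen after the values were seen. Without Cd27 the members summed to 5.71 CPM in that library, to 274 and 297 CPM in the other GFP+ libraries and to 136 to 168 CPM in the GFP− libraries. GFP+ replicate 1, at the other end, was the highest library for Cd28, Lag3, Cd2 and Btla among the 7 tested members, and for Ctla4, against 13.4% of all tested genes.

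Sums of marker lists for other cells also differed between libraries, often through a few genes of a list. The 11 natural killer (NK) cell and ILC1 markers, led by Nkg7 and Klrk1, summed to 221, 407 and 35.7 CPM in GFP+ replicates 1, 2 and 3 and to 334 to 351 CPM in GFP− ILCPs. In GFP+ replicate 3, 9 of the 11 were at 0, while Gzmb had its highest value of all libraries, 33.3 CPM. Among all genes with a mean of at least 5 CPM in the other 5 libraries, 7.59% were at 0 there. The markers were not held to that level. The 9 ILC2 markers, led by Il1rl1 and Il17rb, summed to 5613 CPM in GFP+ replicate 3, to 1388 and 2351 CPM in the other GFP+ libraries and to 1240 to 1759 CPM in GFP− ILCPs. In GFP+ replicate 3, Il1rl1 gave 2833 CPM and Il2ra, the CD25 gene named above, 2032 CPM of that sum. Il17rb stood at 601 CPM there, below its GFP− values of 705 to 963 CPM. Of the 9 markers, 5 were higher and 4 lower in GFP+. The 10 B cell markers summed to 10629 CPM in GFP+ replicate 3, of which Ighm, the immunoglobulin heavy chain constant gene, gave 9705 CPM and Jchain 802 CPM, against 444 and 582 CPM in the other GFP+ libraries and 594 to 1398 CPM in GFP− ILCPs. The sum of the 10 T cell markers was highest in GFP+ replicate 1, at 478 CPM. Cd3e and Lat, the genes of highest mean, stood at 163 and 67.96 CPM there. Cd8b1, named after its values were seen, gave 89.5 CPM there. Lat was higher in GFP− replicates 1 and 2, at 82.8 and 84.5 CPM. The list summed to 193 and 155 CPM in GFP+ replicates 2 and 3. In GFP− replicates 1, 2 and 3 it summed to 327, 241 and 144 CPM. In GFP+ replicate 3, 3 of the 10 T cell markers were at 0, among them Cd3e, beside the 7.59% given above. None of the 10 was at 0 elsewhere. The myeloid markers, led by Lyz2 and Mpo, summed to 923, 28.7 and 1622.5 CPM in GFP+ replicates 1, 2 and 3 and to 173 to 381 CPM in GFP− ILCPs. Those of mast cells and basophils, led by Cpa3 and Mcpt8, ranged from 394 to 1212 CPM in GFP+ and from 211 to 949 CPM in GFP− ILCPs. Erythroid markers, led by Slc4a1 and Hbb-bs, did not exceed 114 CPM in GFP+ or 78.7 CPM in GFP− ILCPs, and those of plasmacytoid dendritic cells, led by Ccr9 and Tcf4, ranged from 532 to 1678 CPM in GFP+ and from 457 to 799 CPM in GFP− ILCPs. Eomes, Tbx21, Cd5, Lat and Klrg1 are also in the lists of related genes given further on. The part of such cells in the values of the 8 receptors was not tested.

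**Figure D3:**
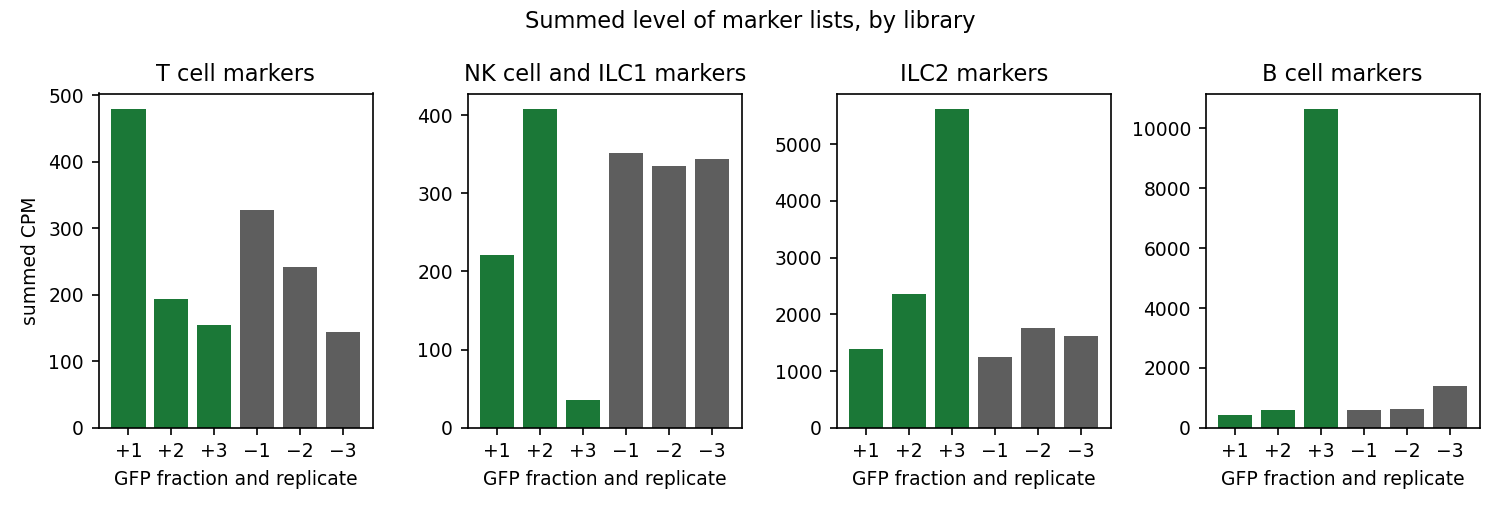
Summed CPM of 4 marker lists in each library, GFP+ (green) left of GFP− (grey). The T cell sum is highest in GFP+ replicate 1 at 478 CPM, and GFP+ replicate 3 has the lowest NK cell and ILC1 sum (35.7 CPM) and the highest ILC2 and B cell sums (5613 and 10629 CPM). In GFP+ replicate 3, Gzmb gives 33.3 CPM of the NK cell and ILC1 sum. Il1rl1 and Il2ra give 2833 and 2032 CPM of the ILC2 sum there, and Ighm 9705 CPM of the B cell sum.

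Levels can be set between genes only per length, here as counts per kb of annotated exon, scaled so that all genes with a length give the same total in each library. On this scale Cd27 was the highest of the 8 in all 6 libraries, at a mean level of 398 ± 168 in GFP+ and 644 ± 165 in GFP− ILCPs (SD, n = 3 each). Pdcd1 followed, at 108, 136 and 0 in GFP+ replicates 1, 2 and 3 and at 262, 143 and 125 in GFP− replicates, and was second in 4 of the 6 libraries. Next by the mean over 6 libraries came Cd28 at 48.4 ± 51.6, Tigit at 24.7 ± 16.6 and Cd2 at 24.7 ± 31.9 (SD over 6 libraries, both groups). Btla at 20.6 ± 25.0, Lag3 at 10.8 ± 9.79 and Ctla4 at 6.90 ± 11.6 closed the order. The ranges of all neighbours in this order overlapped, and of the 7 neighbouring pairs only Cd27 over Pdcd1 held in every library. In GFP− ILCPs, Pdcd1 was the second in all 3 libraries, and its lowest GFP− level, 125, was above the highest GFP− level of any member below it, 49.8 for Tigit. With the median transcript length in place of the exon length, Cd28 ranked above Pdcd1, so the order after Cd27 depends on the length used.

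**Figure D4:**
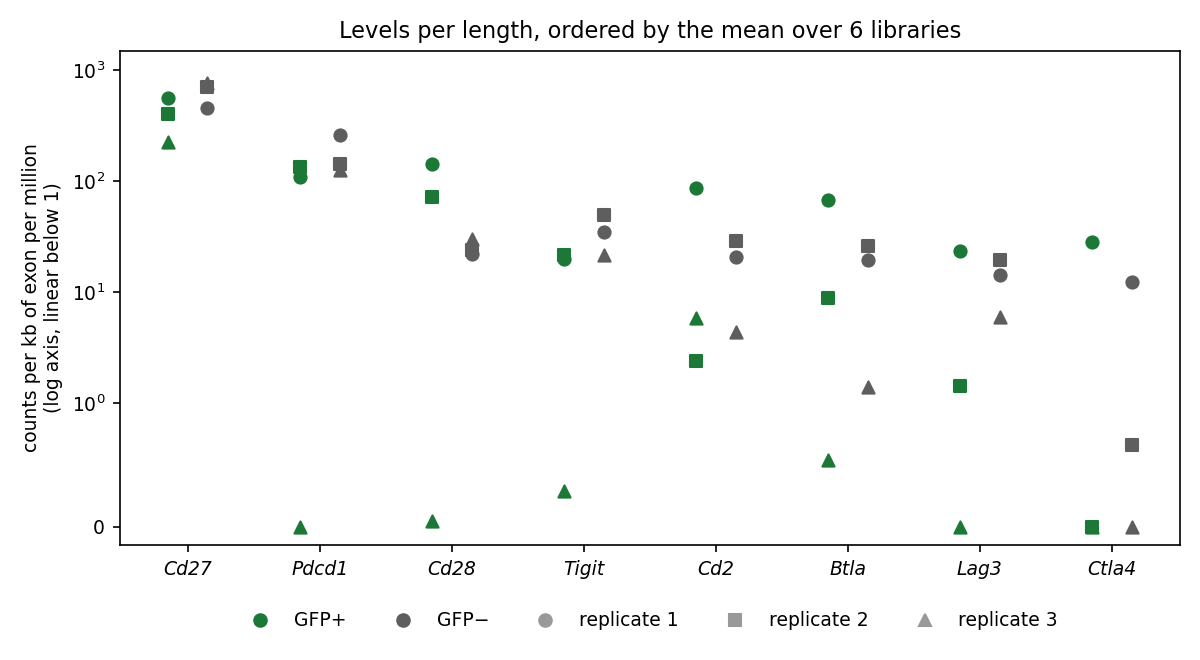
Level per kb of exon for each member in each library, on a log axis that is linear below 1, with GFP+ left of GFP− for each gene. Cd27 lies between 226 and 770 in every library, whereas GFP+ replicate 3 (triangles) is near or at 0 for Pdcd1, Cd28, Tigit, Btla, Lag3 and Ctla4.

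The members did not share one profile over the 6 libraries. Likeness was measured as the root mean square distance between profiles of log2(CPM + 1), each centred on its own mean. The closest members were Lag3 and Tigit, at 0.93 log2 units, and the farthest were Pdcd1 and Cd2, at 2.64. Among 10683 genes, those nearest to Pdcd1 were Slc41a1, a magnesium transporter, at 0.23, and Klrk1, which encodes the activating receptor NKG2D, at 0.28. Klrk1 had 46.2, 103 and 0 CPM in the GFP+ cells of pools 1, 2 and 3 and 69.7, 64.6 and 60.7 CPM in their GFP− cells, so it too was at 0 in GFP+ replicate 3. The gene nearest to Cd28 was Slamf6, another receptor of lymphocytes, at 0.71, followed by Abi3bp at 0.74. The nearest to Tigit were Ccndbp1 at 0.10 and Kif18a at 0.14, and those to Cd27 were Serpinb9, an inhibitor of granzyme B, at 0.11 and Lpl, lipoprotein lipase, at 0.12. Lag3 was nearest to Grk3 and Acad8 (0.21 and 0.24), Cd2 to Ggt5 and Ankrd61 (0.29 and 0.33), and Btla to Kptn and Hectd3 (0.35 and 0.42). These are descriptions over 6 libraries of unequal depth, and every profile includes the same outlying library.

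Related genes were read in the same fit, as 4 lists by role, and none of their members passed edgeR's test over all genes (adjusted p = 0.998 for those named). Beside them the median log2 fold change was −0.43 for the 7 tested receptors, 3 higher and 4 lower in GFP+ ILCPs, and −0.028 for all 12199 genes, 5980 higher and 6219 lower.

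Of 12 ligands, 11 were in the table and 9 were tested, 8 with a higher and 1 with a lower value in GFP+ ILCPs and a median log2 fold change of 0.78. Cd274, which encodes PD-L1, stood at 50.9, 86.9 and 90.8 CPM in the GFP+ cells of pools 1, 2 and 3 and at 35.5, 20.04 and 77.3 CPM in their GFP− cells. Its log2 fold change was 0.78 ± 0.66 (SE), and the groups overlapped at GFP− replicate 3. Cd48, the ligand of CD2, stood at 51.1 ± 12.4 CPM in GFP+ cells and 66.6 ± 56.9 CPM in GFP− cells (SD, n = 3 each), with 132 CPM in GFP− replicate 3. Icosl, the ligand of ICOS, stood at 70.9 CPM in GFP+ replicate 3 and between 5.68 and 14.7 CPM in the other 5 libraries.

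Of 22 other costimulatory and inhibitory receptors in the table, 21 were tested, 14 higher and 7 lower, with a median of 0.65. Groups did not overlap for 3 of the 21, beside 9.18% of all tested genes. These were Cd7, lower in GFP+, and Cd69 and Cd200r1, higher; Cd69 and Cd200r1 are named because of this count, after their values were seen. Cd7, a surface receptor of early T, NK and innate lymphoid cells, had 18.97, 10.04 and 19.3 CPM in the GFP+ cells of pools 1, 2 and 3, against 70.0, 44.8 and 37.7 CPM in the GFP− cells of these pools. Its log2 fold change was −1.66 ± 0.68 (SE), at an unadjusted edgeR p of 0.0352 and an adjusted p of 0.998. Cd69, an early activation antigen, stood at 38.5 ± 22.4 CPM in GFP+ cells and 14.3 ± 6.02 CPM in GFP− cells (SD, n = 3 each). Cd200r1, the inhibitory receptor for CD200, stood at 68.6 ± 31.6 and 28.1 ± 4.71 CPM. Its groups nearly touched, at 34.3 CPM in GFP+ replicate 1 and 33.4 CPM in GFP− replicate 3. Icos, the costimulatory receptor next to Ctla4 in the genome, was the most abundant of the list, at 459 ± 221 CPM in GFP+ cells and 666 ± 237 CPM in GFP− cells. Cd96, which like TIGIT binds PVR, stood at 304 ± 229 and 239.7 ± 132 CPM. Cd160, a receptor that like BTLA binds HVEM, had 18.97, 61.8 and 134 CPM in the GFP+ cells of pools 1, 2 and 3 and 11.9, 9.15 and 39.9 CPM in their GFP− cells. It was higher in GFP+ in each pool without passing the test (log2 fold change 1.82 ± 0.88, SE). The share of all genes higher in each pool is not given here, while 14.9% of all tested genes were lower in 3 of 3 pairs.

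Signalling genes below these receptors gave 27 tested, 12 higher and 15 lower, with a median of −0.14. Groups did not overlap for 4 of the 27, beside the 9.18% of all tested genes. Ptpn22 and Lck were lower, and Fyn and Traf2 higher, in GFP+ ILCPs. Lck, Fyn and Traf2 are named after their values were seen, and their groups nearly touched. The highest GFP+ value of Lck was 73.93 CPM and its lowest GFP− value 74.05 CPM. For Fyn the lowest GFP+ value was 114.9 CPM against a highest GFP− value of 114.1 CPM, and for Traf2 29.3 against 28.8 CPM. Ptpn22, a phosphatase that limits antigen receptor signalling, had 129, 68.5 and 91.9 CPM in the GFP+ cells of pools 1, 2 and 3, against 173, 213 and 255 CPM in the GFP− cells of these pools. Its log2 fold change was −1.15 ± 0.49 (SE), at an unadjusted edgeR p of 0.0408. Sh2d2a, an adaptor that binds LCK, had 1950.4 CPM in GFP+ replicate 2, 171 and 686 CPM in the other GFP+ libraries and 136 to 372 CPM in GFP− libraries. Pik3r1, a regulatory subunit of PI3 kinase, stood at 502 ± 372 CPM in GFP+ cells and 623 ± 481 CPM in GFP− cells. Traf2, the adaptor that CD27 uses, stood at 60.7 ± 28.2 CPM in GFP+ cells and 25.1 ± 3.45 CPM in GFP− cells (SD, n = 3 each).

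Transcription factors known to act on Pdcd1 or in exhausted T cells gave 22 tested, 14 higher and 8 lower, with a median of 0.30. Groups did not overlap for 2 of the 22, close to the 9.18% of all tested genes: Foxo1 and Rbpj, both higher, the second named after its values were seen. Foxo1 had 199, 279 and 164 CPM in the GFP+ cells of pools 1, 2 and 3, against 149, 102 and 138 CPM in the GFP− cells of these pools, and a log2 fold change of 0.73 ± 0.48 (SE). Tcf7, which encodes TCF-1 and is needed by ILC precursors, had 343 CPM in GFP+ replicate 3 and at least 1113.5 CPM in every other library. Ikzf2, which encodes Helios, stood at 851 ± 245 CPM in GFP+ cells and 947 ± 198 CPM in GFP− cells (SD, n = 3 each). Eomes, a T-box factor of NK and T cells, was at 0 in GFP+ replicate 3 and at 115.7 CPM in GFP− replicate 3. It was among 3 of the 22 at 0 in GFP+ replicate 3, beside 7.59% of all genes with a mean of at least 5 CPM in the other 5 libraries.

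**Figure D5:**
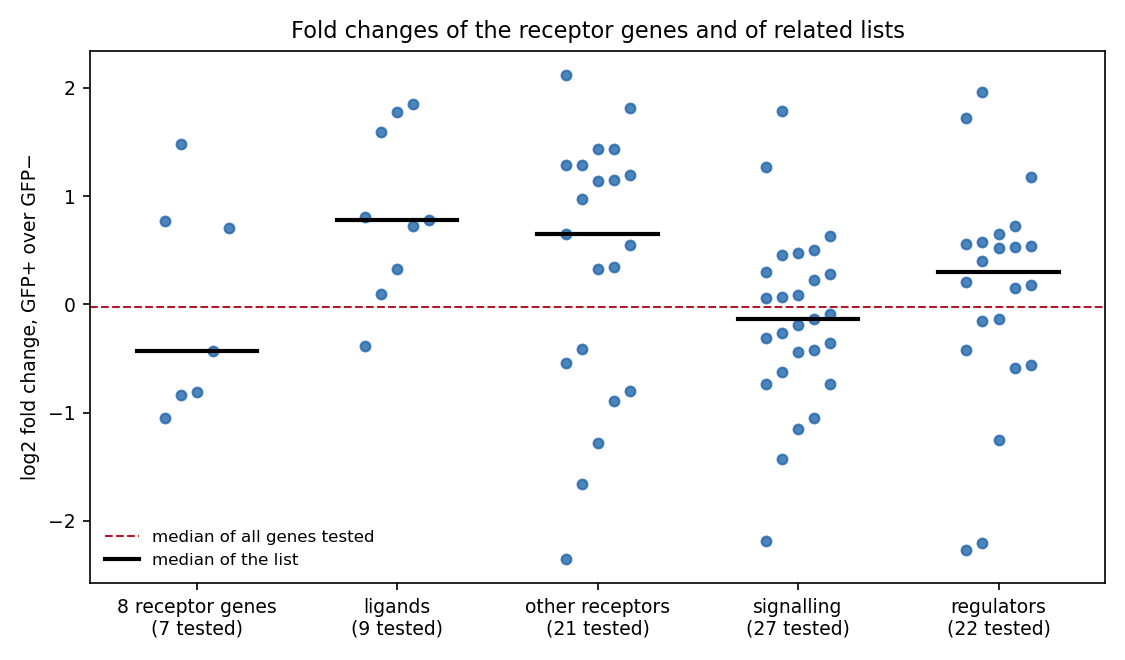
Log2 fold changes of GFP+ over GFP− for the tested genes of the 8 receptors and of 4 related lists, 1 point a gene, with a bar at each list's median and a dashed line at the median of all genes tested. The medians are −0.43, 0.78, 0.65, −0.14 and 0.30 from left to right, and no gene shown passed the test.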

How the data were processed

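Per the labels' protocols, ILCP RNA was made into libraries with the Trio RNA-seq kit, which amplifies cDNA from a single primer, and sequenced as paired reads of 75 bases; such amplification can leave low transcripts uncounted, and whether strand was kept is not given in the sources used here. The authors deposited estimated counts per gene, which are not whole numbers, and the tools kallisto, Bowtie2, Trimmomatic and DESeq2 and the build GRCm38 are listed in the submitters' processing notes. The deposited table also gives log2 fold changes, a Wald score, p-values with their adjusted form, and a mean signal per gene, per the file headers. That mean equals the mean of the rounded counts over 1 factor per library within 1e-06 for all 16383 genes. The fitted factors were not compared with 1, so the check cannot show whether the counts had been scaled between libraries. Genes whose symbols come alphabetically beyond Trappc10 are not analysed here, nor is Cd70. Rows whose symbols had turned into dates (21) were kept in the fit.

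Counts were rounded and tested with edgeR 4.0.16 in R 4.3.3 (quasi-likelihood, robust, TMM, filterByExpr, group as the only term), with Benjamini-Hochberg adjustment at 0.05 over all genes tested. DESeq2 1.42.0 and the other alternatives are described with their effect in the closing section. CPM use the TMM scaling; standard errors come from the fold change and the test statistic. By the labels, libraries that share a number share a pool of mice and are pairs; correlations of their deviations from group means were 0.161, −0.121 and −0.131, so the pairing rests on the labels. Exon lengths came from GENCODE vM21, matched for 98.7% of genes. The scripts were tested on simulated counts. The named genes were all 8 members; of each related list the 2 of highest mean CPM and the 2 of smallest p; of each marker list the 2 of highest mean CPM; and for each tested member its 2 nearest genes among those with a mean of at least 20 counts, without predicted genes. The members and lists were chosen with earlier results of these data known. Plots were made in Python 3.11.15 with matplotlib 3.10.9.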

Additional observations from a re-analysis of the deposited data

How the results depend on the processing

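No member passed the threshold in any of the settings tried: edgeR as reported, DESeq2 with and without the replicate block, edgeR with the replicate block, DESeq2's factors or library totals in edgeR, no filter, a mean of at least 50 counts, an adjusted p under 0.1, or with 1 replicate or 1 library left out. Over all genes edgeR called 0 in each of its settings, with the replicate block included, while DESeq2 called 60 and, with the block, 153; the cause was not tested. Where an arm was left with 2 samples, the spread was estimated from both groups. Of 112 values of the 7 tested members' log2 fold changes under the alternatives, 107 kept their sign and 5 did not. With replicates or libraries left out, that of Cd27 ranged from −0.67 to 0.070, that of Cd2 from −1.07 to 1.77 and that of Btla from −0.89 to 1.54. Adjusted p over all these alternatives were 0.556 to 1.00. With the median transcript length the order of levels was Cd27 at rank 1, Cd28 at 2, Pdcd1 at 3, Cd2 at 4, Btla at 5, Tigit at 6, Ctla4 at 7 and Lag3 at 8, since other lengths divide the same counts, and with TMM-scaled library sizes the order was that reported. Ctla4, Lag3 and Tigit rest on at most 208 counts a library, and on 0 or 1 count in some, so counting error adds to their spread.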

Other observations

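Slamf6, whose product is a receptor of the SLAM family on lymphocytes, was the gene nearest to Cd28 in profile, and its values are given here. It had 122, 102 and 0.476 CPM in the GFP+ cells of pools 1, 2 and 3 and 51.1, 24.5 and 22.6 CPM in their GFP− cells, so that GFP+ replicates 1 and 2 lay above every GFP− library and GFP+ replicate 3 was near 0. Its log2 fold change was 1.2 (edgeR adjusted p = 0.998). Havcr2, which encodes the inhibitory receptor TIM-3, had 0 counts in every GFP+ library and 0.140, 1.88 and 6.15 CPM in GFP− replicates 1, 2 and 3, and was too low for edgeR's filter. Its GFP− values rest on 2, 41 and 79 counts, the first of them under the floor of 3 counts. The share of all genes at 0 in every GFP+ library was not counted. Both genes were chosen after their values were seen.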
